A study of Mus musculus with 7 samples.

Results

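Transcripts of 10 mouse genes that cut, trim, amidate and package neuropeptides were compared between RNA on tagged ribosomes of Gad2-lineage cells and unbound RNA of the hippocampus. The 10 genes were chosen by symbol, and all 10 had a row among the 39017 gene IDs of the count table. They are the prohormone convertases Pcsk1 and Pcsk2, the convertase inhibitor Pcsk1n, carboxypeptidase E (Cpe), the amidating enzyme Pam, and the granins Scg2, Scg3, Chga, Chgb and Vgf. The libraries were made by TRAP (translating ribosome affinity purification): ribosomes that carry a tagged protein are pulled down together with the RNA they hold. Bound libraries (3) hold the pulled-down RNA, and unbound libraries (4) are labelled Unbound. Per the series text the mice carried GAD2 cre and L10-EGFP, a fluorescent tag on a large-subunit ribosomal protein, and each TRAP sample pooled 2 hippocampi. These alleles are shared by all libraries as far as the labels say. No source used here gives age, sex, strain background, animal, batch or pairing, or says that bound and unbound libraries came from the same tissue. The bound titles start with GAD_ctrl, whose meaning is not stated. The unbound titles fall into a UBS series (replicates 1 and 2) and a UBGS series (replicates 3 and 4), 2 libraries each, also of unstated meaning. Cre marks a cell permanently once it has acted, so the tag follows the history of the Gad2 promoter and not only its present activity.

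Neuropeptides are made as long precursors that enter the regulated secretory pathway. Convertases cut them after pairs of basic residues, carboxypeptidase E removes the basic residues left behind, and the amidating enzyme turns a terminal glycine into the amide that many peptides need for activity. Granins are acidic proteins that help to form dense core vesicles, and several are themselves cut into peptides. Many hippocampal GABAergic interneurons are named for the peptide they release, while granule and pyramidal cells also have dense core vesicles.

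Library totals ranged from 38690380 to 51953811 counts. Among GABAergic neuron markers all 14 were higher in bound RNA, Gad2 itself 4.99-fold, and their summed level ran from 6280 to 8200 CPM in bound libraries and from 662 to 798 CPM in unbound libraries. CPM here is the count scaled to the TMM-adjusted library size, a scaling that sets the libraries to a common level over most genes. The GABAergic markers include Sst, Npy and Vip, which are also among the peptide precursor genes counted below. Sst alone stood at 2572 to 3844 CPM in bound libraries and at 85.31 to 109.1 CPM in unbound libraries. All 12 excitatory neuron markers were lower, at a summed 1220 to 1500 CPM in bound libraries and 5920 to 7790 CPM in unbound libraries. Of 8 astrocyte markers 7 were lower, and their summed level ran from 275 to 302 CPM in bound libraries and from 2120 to 3080 CPM in unbound libraries. All 9 microglia markers were higher, at a summed 220 to 613 CPM in bound libraries and 75.1 to 110 CPM in unbound libraries, highest in bound replicate 2. No astrocyte, microglia or excitatory marker was at 0 in all bound libraries, and the part of these cells in the values below was not tested. Mitochondria-encoded RNA took from 0.0867% to 0.123% of counts in bound libraries and from 28.5% to 32.9% in unbound libraries.

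The 10 genes did not move as a block. In the bound libraries 5 were higher (Pcsk1n, Vgf, Chga, Pam and Scg2), 3 were lower (Pcsk2, Chgb and Cpe), and Pcsk1 and Scg3 did not pass the test (edgeR quasi-likelihood test, adjusted p under 0.05). Over all 19563 genes tested 61.7% passed, 31.0% higher and 30.7% lower, so a call by itself did not set these genes apart. The libraries of the groups did not overlap for 7 of the 10, against 63.3% of all genes. Against a minimum of 1.5-fold 7 of the 10 passed, Cpe dropping out, against 35.0% of all genes. The median of the 10 log2 fold changes (bound minus unbound) was 0.63, beside −0.01 over all genes tested. Fewer cells of a type, less RNA per cell and the difference between ribosome-bound and unbound RNA itself cannot be told apart in such bulk libraries. Scaling by library totals instead of TMM put the all-gene median at 0.43 on the log2 scale, so every direction here is relative to the TMM scaling.

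**Figure D1:**
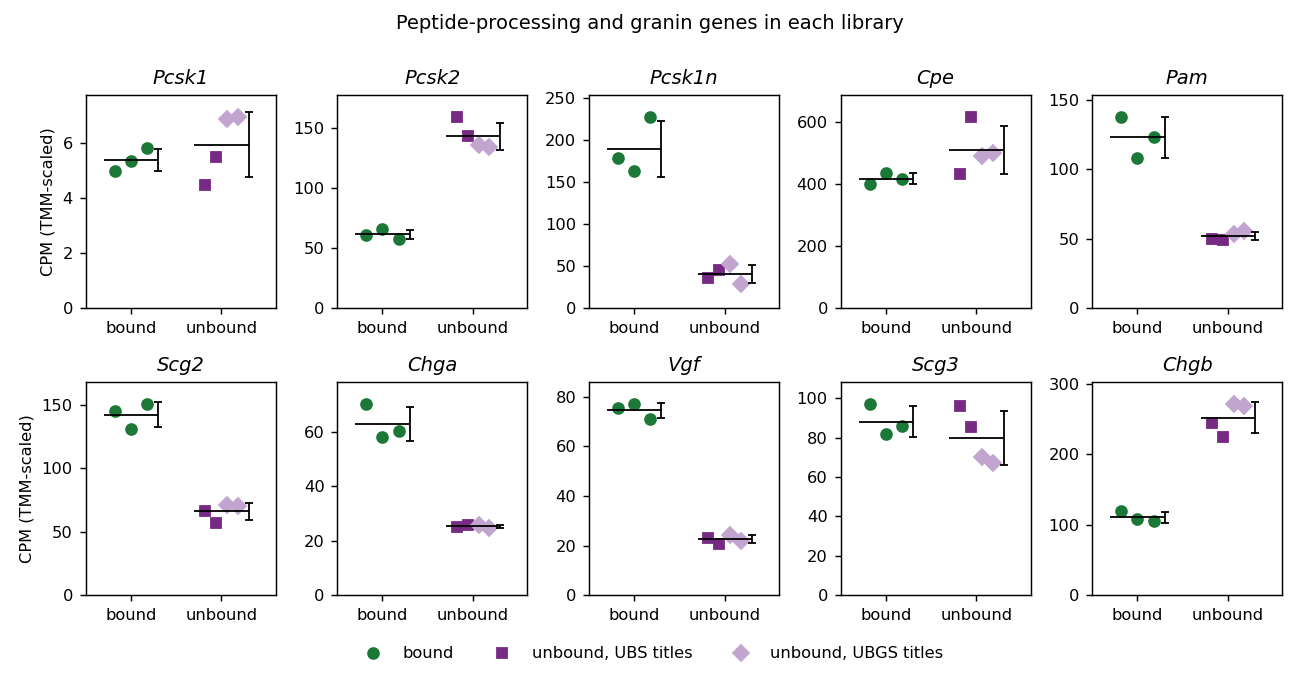
Level of each gene in every library, in TMM-scaled CPM on linear axes from 0, with horizontal lines at the group mean and bars of 1 SD (bound, n = 3; unbound, n = 4). Squares and diamonds separate the UBS and UBGS titles. Pcsk1n, Pam, Scg2, Chga and Vgf lie higher in every bound library than in any unbound library, Pcsk2 and Chgb lie lower, and Pcsk1, Cpe and Scg3 overlap.

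The convertases went separate ways. Pcsk2 encodes PC2, which works late in vesicle maturation and makes many of the final short peptides. It stood at 60.6, 65.6 and 57.9 CPM in bound replicates 1 to 3 and at 158.8, 143.7, 136.2 and 134.0 CPM in unbound replicates 1 to 4. Every bound library was below every unbound one, and the gene was 2.33-fold lower (log2 −1.22, SE 0.08, edgeR adjusted p = 3.5e-07). Pcsk1 encodes PC1/3, which makes the early cuts and is abundant in endocrine cells. It was scarce, at 4.98, 5.33 and 5.81 CPM in bound libraries and 4.47, 5.47, 6.86 and 6.92 CPM in unbound libraries, from 152 to 333 reads per library. The bound values lay inside the unbound range. The log2 difference was −0.14 with a 95% interval from −0.57 to 0.28 (edgeR adjusted p = 0.54), which leaves room for moderate change either way. Per kilobase of exon, Pcsk2 was 8.61, 8.72 and 7.07 times as abundant as Pcsk1 in bound libraries and 25.2, 18.6, 14.1 and 13.7 times in unbound libraries, a ratio that no scaling between libraries can move.

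Partners of the convertases were higher. Pcsk1n encodes proSAAS, a granin-like protein with an inhibitory segment that blocks PC1/3. It stood at 178.4, 162.7 and 226.7 CPM in bound libraries and at 35.55, 45.7, 52.9 and 28.95 CPM in unbound libraries. It had the largest difference of the 10, 4.64-fold higher (log2 2.21, SE 0.18, edgeR adjusted p = 1.7e-06), above 96.2% of all genes tested. Relative to its target, Pcsk1n per length was 91.5, 78.0 and 99.7 times Pcsk1 in bound libraries and 20.3, 21.4, 19.7 and 10.7 times in unbound libraries. Scg5, which encodes the PC2 chaperone 7B2 and is not among the 10, stood at 89.99, 68.05 and 91.35 CPM in the bound libraries, against 54.6, 35.6, 56.1 and 56.2 CPM in the unbound ones. The lowest bound value lay above the highest unbound value (log2 0.72, SE 0.16, edgeR adjusted p = 0.0023). Scg5 did not pass against the 1.5-fold minimum (edgeR adjusted p = 0.18), nor once the trend of fold change with exon length was taken out (log2 0.13, edgeR adjusted p = 0.52). Scg5 per length was 7.49, 5.23 and 7.95 times Pcsk2 in bound libraries and 1.73, 1.25, 2.08 and 2.11 times in unbound libraries, with no overlap. Division by length does not take out the trend of fold change with exon length. Scg5 has 1569 exon bases against 7910 for Pcsk2, and Pcsk1n 2193 against 5604 for Pcsk1, so both ratios carry part of that trend. So does the Pcsk2 to Pcsk1 ratio above, with 7910 against 5604 exon bases.

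The finishing enzymes also parted. Pam, the only enzyme known to amidate peptides in mammals, stood at 137.3, 108.1 and 123.3 CPM in bound libraries and at 49.7, 49.3, 53.5 and 55.5 CPM in unbound libraries. It was 2.36-fold higher (log2 1.24, SE 0.09, edgeR adjusted p = 5.4e-07), and its lowest bound value lay well above its highest unbound value. Cpe, which serves nearly every peptide precursor and is made by astrocytes as well as neurons, was the most abundant of the 10. It stood at 401.2, 435.5 and 415.1 CPM in bound libraries and at 434.1, 615.2, 490.6 and 500.6 CPM in unbound libraries. Unbound replicate 2 was the highest, and bound replicate 2 lay just above unbound replicate 1. The difference was 1.22-fold lower (log2 −0.29, SE 0.10, edgeR adjusted p = 0.032). That call was lost without bound replicate 1 or 3 (edgeR adjusted p = 0.10 and 0.072). The same held with unbound replicate 2 or 4 left out (edgeR adjusted p = 0.084 and 0.053), the log2 value being −0.17 without replicate 2. Over all settings its adjusted p ran from 0.00065 to 1, and with library totals its sign turned (log2 0.14). The Pam to Cpe ratio per length was 0.0751, 0.0545 and 0.0651 in bound libraries and 0.0251, 0.0176, 0.0239 and 0.0243 in unbound libraries. This ratio also carries the trend of fold change with exon length, Pam having 11892 exon bases against 2609 for Cpe. With that trend taken out Pam stood at 1.74 and Cpe at −0.58 on the log2 scale.

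The granins split within the family. Vgf, a secreted neuronal protein induced by neurotrophins and activity, stood at 75.6, 76.9 and 71.2 CPM in bound libraries and at 23.2, 20.8, 24.4 and 21.8 CPM in unbound libraries. It was 3.31-fold higher (log2 1.73, SE 0.08, edgeR adjusted p = 3.2e-08). Chga, chromogranin A, the founding granin of adrenal chromaffin cells, stood at 70.0, 58.1 and 60.4 CPM in bound libraries and at 25.1, 25.7, 25.8 and 24.55 CPM in unbound libraries. It was 2.48-fold higher (log2 1.31, SE 0.09, edgeR adjusted p = 3.2e-07), with bound replicate 1 the highest. Scg2, secretogranin II and precursor of the peptide secretoneurin, stood at 145.4, 131.1 and 150.2 CPM in bound libraries and at 66.5, 56.5, 70.8 and 69.9 CPM in unbound libraries. It was 2.16-fold higher (log2 1.11, SE 0.09, edgeR adjusted p = 1.4e-06). All 3 genes were separated between the groups.

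Chgb, chromogranin B, went against them. It stood at 119.5, 107.6 and 104.6 CPM in bound libraries and at 244.2, 224.3, 270.7 and 268.9 CPM in unbound libraries. It was 2.28-fold lower (log2 −1.19, SE 0.09, edgeR adjusted p = 5.6e-07), with no overlap. Scg3, secretogranin III, which binds other granins to the cholesterol-rich vesicle membrane, stood at 97.0, 82.1 and 85.8 CPM in bound libraries and at 96.3, 85.6, 70.3 and 67.01 CPM in unbound libraries. Bound replicate 1 lay just above the unbound range and the others inside it, and the UBS libraries were the higher unbound ones. Its log2 difference was 0.15 with a 95% interval from −0.13 to 0.42 (edgeR adjusted p = 0.32). Against the UBGS libraries alone Scg3 passed as higher (log2 0.38, edgeR adjusted p = 0.0097), while against the UBS libraries alone it stood at −0.04 (edgeR adjusted p = 0.77). Scg3 also passed with library totals (log2 0.58, edgeR adjusted p = 0.0015).

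**Figure D2:**
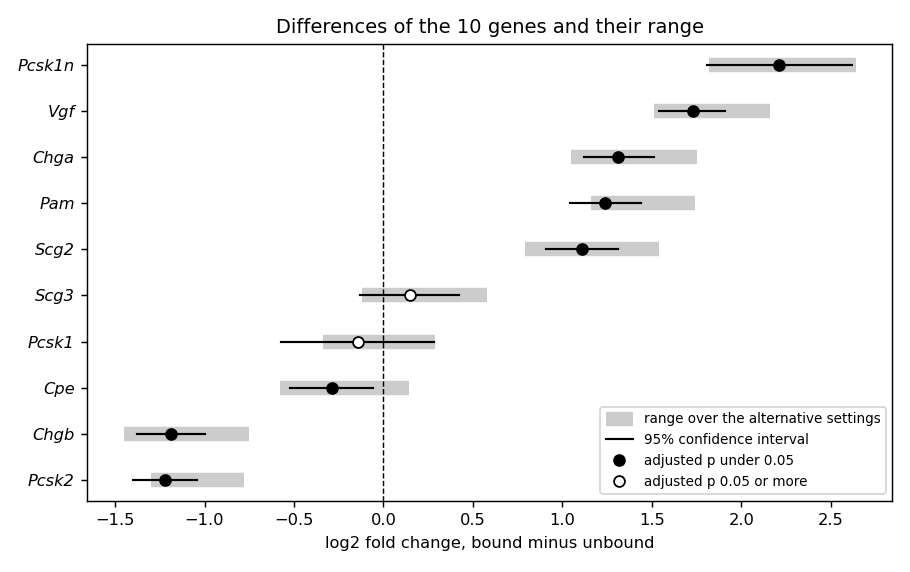
Log2 fold change (bound minus unbound) of the 10 genes, with black lines for the 95% confidence interval of the edgeR fit to 3 bound and 4 unbound libraries, and grey bars for the range over 17 alternative settings. Filled points passed at adjusted p under 0.05. The 5 higher genes, Pcsk2 and Chgb stay on their side of 0 in each setting, while the grey bars of Scg3, Pcsk1 and Cpe cross it.

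The summed granin level overlapped between the groups while its make-up did not. Summed over the 5 granins, the level per kilobase of exon was 188, 168 and 175 CPM per kb in bound libraries and 168, 152, 170 and 167 CPM per kb in unbound libraries. Chgb made up 22.8% ± 0.839 of that sum in bound libraries (SD, n = 3) and 56.0% ± 2.87 in unbound libraries (SD, n = 4). Scg2 made up 32.0% ± 1.85 in bound and 15.9% ± 0.858 in unbound libraries and took the leading place in the bound ones. Vgf made up 14.2% ± 1.01 in bound and 4.62% ± 0.173 in unbound libraries, and Chga 12.8% ± 0.577 in bound and 5.61% ± 0.361 in unbound libraries. The share of Scg3 overlapped, at 18.2% ± 0.608 in bound and 17.9% ± 3.41 in unbound libraries. The ratio of Chgb to Chga, the chromogranins, was 1.72, 1.86 and 1.74 in bound libraries and 9.79, 8.77, 10.5 and 11 in unbound libraries. These shares and ratios were described after the fold changes were known and were not tested.

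**Figure D3:**
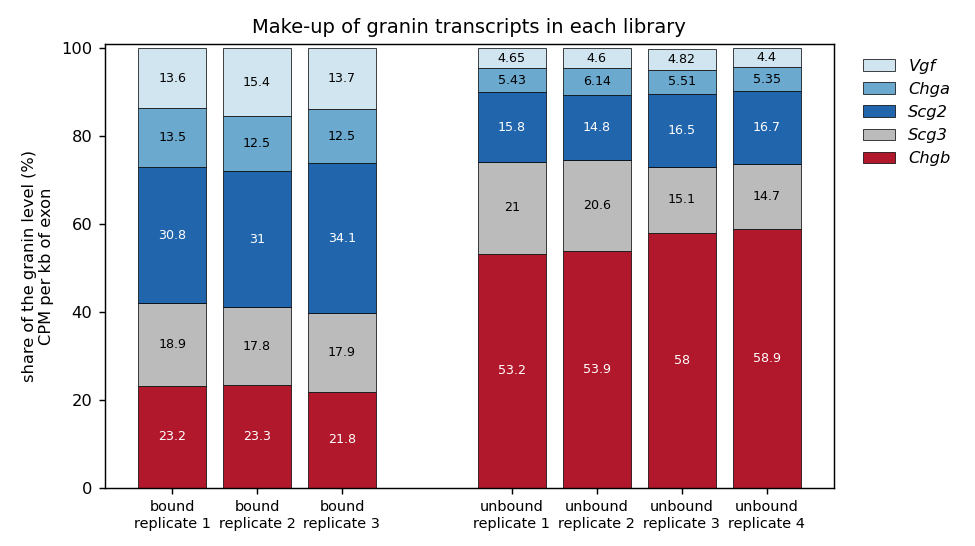
Share of each granin in the summed granin level of a library, in percent, with levels taken as CPM per kilobase of merged exon, so that each bar sums to 100% up to rounding. Chgb holds 21.8% to 23.3% in the 3 bound libraries and 53.2% to 58.9% in the 4 unbound libraries, and Scg2, Chga and Vgf hold more in each bound library.

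Per length, the order of the 10 genes also changed. In bound libraries the mean level was highest for Cpe at 159.9 CPM per kb, then Pcsk1n at 86.3, Scg2 at 56.55, Chgb at 40.4, Scg3 at 32.2, Vgf at 25.1, Chga at 22.8, Pam at 10.3, Pcsk2 at 7.76 and Pcsk1 at 0.959 CPM per kb. The ranges of Vgf and Chga overlapped (23.9 to 25.9 and 21.1 to 25.4 CPM per kb), and the other neighbours in that order did not. In unbound libraries the order was Cpe at 195.5 CPM per kb, Chgb at 92.0, Scg3 at 29.1, Scg2 at 26.2, Pcsk1n at 18.6, Pcsk2 at 18.1, Chga at 9.18, Vgf at 7.58, Pam at 4.37 and Pcsk1 at 1.06 CPM per kb. There the ranges of Scg3, Scg2 and Pcsk1n overlapped from one to the next, as did those of Pcsk1n and Pcsk2. Length was the sum of all annotated exons of a gene, which for Pam (11892 bases) and Pcsk2 (7910 bases) includes long ends that not every transcript carries.

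Fold changes in these libraries fell with exon length, so the 10 genes were also fitted with that trend taken out. The 8 calls kept their direction, with Pam at 1.74, Chgb at −1.45, Pcsk2 at −0.94 and Scg2 at 0.79 on the log2 scale. Exon length ran from 2515 bases for Scg2 to 2973 bases for Vgf among the granins. Exons of 3 members overlap another gene. Pcsk1n shares 6.16% of its exon length with Eras on the opposite strand, which reached at most 0.272 CPM. Pcsk2 shares 4.54% with the antisense genes Pcsk2os1 and Pcsk2os2, at most 11.5 CPM. Pam shares 1.58% with B230216N24Rik on the same strand, at most 2.47 CPM. No source used here says whether counting used strand.

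On mm10, Pcsk1 (ENSMUSG00000021587) lies on chromosome 13 from 75089826 to 75134861, Pcsk2 (ENSMUSG00000027419) on chromosome 2 from 143546156 to 143816285 and Pcsk1n (ENSMUSG00000039278) on chromosome X from 7919822 to 7924410. Cpe (ENSMUSG00000037852) lies on chromosome 8 from 64592542 to 64693054 and Pam (ENSMUSG00000026335) on chromosome 1 from 97795114 to 98095646. Among the granins, Scg2 (ENSMUSG00000050711) lies on chromosome 1 from 79434669 to 79440120, Scg3 (ENSMUSG00000032181) on chromosome 9 from 75643189 to 75684056 and Chga (ENSMUSG00000021194) on chromosome 12 from 102554969 to 102565028. Chgb (ENSMUSG00000027350) lies on chromosome 2 from 132781278 to 132795079 and Vgf (ENSMUSG00000037428) on chromosome 5 from 137026392 to 137033351. The annotation lists each of the 10 as a protein-coding gene, and values are over all its exons.

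Several granin and convertase genes are known to respond to cAMP and activity through the factor CREB, which binds the palindrome TGACGTCA. RefSeq promoter windows on GRCm38.p6, 250 bases before to 50 after the gene start, were found for 8 of the 10 genes, and not for Cpe and Vgf. The palindrome was searched on both strands, which read alike, together with its core TGACG or CGTCA, which the palindrome contains. It was present for 3 of the 8 genes, against 1.79% of 32851 windows of the same length over all genes. The 3 genes took different directions, Scg2 higher, Chgb lower and Pcsk1 without a call. The core was present for 6 of the 8 genes, against 20.8% of all windows. The windows of Scg2 (chr1:79439977-79440276, minus strand), Chgb (chr2:132781392-132781691, plus strand) and Pcsk1 (chr13:75089607-75089906, plus strand) are shown because they hold the palindrome, which begins 68, 72 and 78 bases before the RefSeq gene start. That of Chga (chr12:102554691-102554990, plus strand) is shown as an example of the core followed by other letters. The windows of Scg3 (without a call) and Pcsk2 (lower) also hold the core without the palindrome and are not shown. Capitals mark the core and the palindrome, 5′ to 3′ on the strand of the gene.
Scg2: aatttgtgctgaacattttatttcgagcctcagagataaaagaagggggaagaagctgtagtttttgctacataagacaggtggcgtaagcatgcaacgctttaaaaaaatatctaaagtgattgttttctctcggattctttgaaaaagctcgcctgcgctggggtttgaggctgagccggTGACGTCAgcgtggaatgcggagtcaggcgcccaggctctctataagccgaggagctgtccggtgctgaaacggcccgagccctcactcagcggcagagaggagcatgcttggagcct
Chgb: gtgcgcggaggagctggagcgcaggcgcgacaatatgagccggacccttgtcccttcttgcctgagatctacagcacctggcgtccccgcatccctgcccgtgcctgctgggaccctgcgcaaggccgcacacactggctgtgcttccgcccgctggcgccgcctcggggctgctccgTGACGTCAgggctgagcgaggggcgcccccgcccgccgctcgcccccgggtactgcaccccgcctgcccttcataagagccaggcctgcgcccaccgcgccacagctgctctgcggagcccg
Pcsk1: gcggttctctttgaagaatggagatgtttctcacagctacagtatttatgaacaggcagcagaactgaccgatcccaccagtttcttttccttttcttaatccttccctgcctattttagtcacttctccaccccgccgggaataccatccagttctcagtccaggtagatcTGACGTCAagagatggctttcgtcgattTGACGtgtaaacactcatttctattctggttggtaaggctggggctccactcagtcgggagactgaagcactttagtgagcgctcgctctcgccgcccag
Chga: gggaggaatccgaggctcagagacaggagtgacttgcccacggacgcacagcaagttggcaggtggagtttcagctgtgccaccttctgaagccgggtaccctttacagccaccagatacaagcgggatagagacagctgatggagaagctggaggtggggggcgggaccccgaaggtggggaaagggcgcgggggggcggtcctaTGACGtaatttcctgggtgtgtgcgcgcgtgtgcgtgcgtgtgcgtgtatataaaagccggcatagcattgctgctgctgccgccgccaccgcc
A match is a run of letters and not a measured binding site.

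Genes of the peptide precursors, the substrates of these enzymes, were mostly higher. Of 23 neuropeptide precursor genes tested out of 26 listed, 16 were higher, 4 lower and 3 did not pass, 87.0% called against 61.7% of all genes (median log2 1.87). With the exon length trend taken out 12 were higher, and without bound replicate 1 there were 13. Crh, Gal and Avp had at most 10, 9 and 11 reads in any unbound library, and Npff had 0 in the bound ones. Those genes met the low count filter mainly through the group where they were higher, so their calls were not independent of it. With a filter of at least 1 CPM in 3 libraries 14 were higher and 3 lower. Sst and Npy, the precursors of somatostatin and neuropeptide Y, were 31.8-fold and 25.4-fold higher. Pnoc, the nociceptin precursor, averaged 60.9 ± 4.31 CPM over bound libraries and 2.25 ± 1.09 CPM over unbound libraries. The 4 lower ones were Grp, Adcyap1, Nmb and Npff, named after their values were seen. Each was under 12 CPM in every library, with Npff at 0 in all bound libraries. Among the higher ones Pdyn, Crh, Gal, Nppc, Pomc, Avp and Pthlh were also under 12 CPM in every library.

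Set against the convertases, the precursor pool was larger in the bound libraries, where Sst and Npy made up most of it. Summed per length over all 26 precursor genes, precursors were 601, 490 and 799 times Pcsk1 and Pcsk2 together in bound libraries and 14.0, 14.6, 21.3 and 19.6 times in unbound libraries. Leaving out Sst, the ratio was 128, 104 and 162 in bound libraries and 6.72, 7.30, 14.0 and 13.1 in unbound libraries. The summed precursor level averaged 5450 CPM per kb over bound libraries, of which Sst held 4314 and Npy 743.5 CPM per kb. Without Sst it averaged 1140 CPM per kb, so Npy held most of the rest. Over unbound libraries the sum averaged 330 CPM per kb, with Sst at 135.8 and Npy at 29.33 CPM per kb. The precursor ratios therefore follow a few abundant genes and do not describe all 26 alike. Against the 5 granins the precursors stood at 27.4, 26.9 and 38.2 in bound libraries and 1.74, 1.84, 2.30 and 2.13 in unbound libraries. No pair of libraries from different groups overlapped in any of these ratios, which were not tested. The ratios also carry the trend of fold change with exon length, Sst and Npy being short (721 and 566 exon bases).

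**Figure D4:**
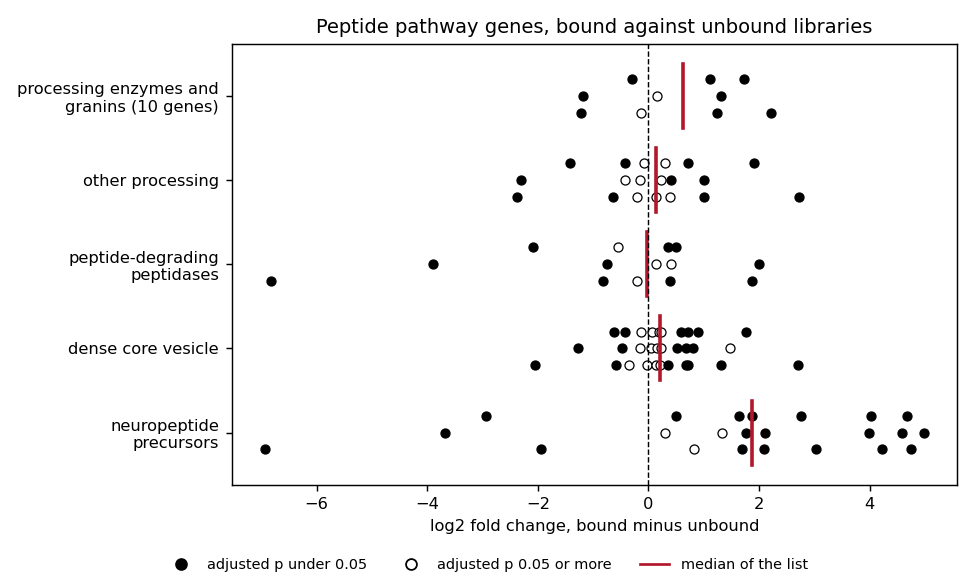
Log2 fold change (bound minus unbound) of each gene tested in 5 lists of the peptide pathway, with 1 point per gene, spread vertically only for legibility, and red lines at the list medians. Neuropeptide precursors lie furthest to the right (median 1.87), while the other lists spread around 0 (medians from −0.04 to 0.63). The leftmost precursor is Npff, whose position depends on the prior count of the fit because it had 0 counts in all bound libraries.

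Of 19 other processing enzymes and convertase partners tested out of 22 listed, 6 were higher, 5 lower and 8 did not pass. That is 57.9% called, near the 61.7% of all genes (list median log2 0.13). Qpctl, a Golgi glutaminyl cyclase, averaged 15.3 ± 1.86 CPM over bound libraries and 7.64 ± 1.73 CPM over unbound libraries (log2 1.01, SE 0.17, edgeR adjusted p = 4.5e-04). Ctsl, cathepsin L, averaged 38.5 ± 2.95 CPM over bound libraries and 19.3 ± 1.27 CPM over unbound libraries. Cpd, the carboxypeptidase of the constitutive secretory pathway, fell to 27.9 ± 3.29 CPM in bound libraries, against 75.0 ± 4.60 CPM in unbound libraries (log2 −1.42, SE 0.10, edgeR adjusted p = 3.9e-07). Slc31a1, which imports the copper that the amidating enzyme needs, was lower by a small margin (17.7 ± 0.684 CPM over bound and 23.9 ± 4.27 CPM over unbound libraries). The call did not hold with library totals, with the UBS libraries alone or without bound replicate 2 (edgeR adjusted p = 0.98, 0.055 and 0.053), nor against the 1.5-fold minimum.

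Of 14 peptide-degrading peptidases, 5 were higher and 5 lower. That is 71.4% called, against 61.7% of all genes, which also fell about equally on both sides (31.0% higher and 30.7% lower; list median log2 −0.04). Among the lower ones Anpep, Dpp4 and Enpep had at most 4, 6 and 8 reads in any bound library. They met the low count filter mainly through the unbound group, where they were higher, so their calls were not independent of it. With a filter of at least 1 CPM in 3 libraries 4 peptidases were higher and 4 lower. Mme, neprilysin, averaged 25.8 ± 5.60 CPM over bound libraries and 6.495 ± 1.39 CPM over unbound libraries (log2 1.99, SE 0.19, edgeR adjusted p = 4.6e-06). Ece2, an endothelin-converting enzyme that works in acidic vesicles, averaged 26.5 CPM over bound libraries and 7.24 CPM over unbound libraries (log2 1.87), and its relative Ece1 was higher by 0.36 on the log2 scale. Ide, the insulin-degrading enzyme, was lower (log2 −0.83), as was the aminopeptidase Lnpep (log2 −0.75), a call lost with the length trend taken out (log2 −0.13, edgeR adjusted p = 0.15).

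Among 31 dense core vesicle genes, 12 were higher, 6 lower and 13 did not pass. That is 58.1% called, near the 61.7% of all genes (list median log2 0.21). With library totals 23 were higher and 2 lower. The vesicle GTPase Rab3b averaged 349.8 ± 62.8 CPM over bound libraries and 53.8 ± 1.45 CPM over unbound libraries (log2 2.70, SE 0.11, edgeR adjusted p = 9.5e-09). Its relative Rab3a and the Rab3 effector Rph3a, rabphilin, were higher by 1.31 and 1.76 on the log2 scale. Syt7, a calcium sensor of vesicle release, stood at −0.59, Ica1 at −0.62 and Ccdc186, needed for vesicle maturation, at −0.48, and all 3 calls were lost with library totals (log2 −0.15, −0.19 and −0.05) and against the 1.5-fold minimum.

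Between the unbound series the 10 genes had log2 differences (UBS minus UBGS) from −0.47 for Pcsk1 to 0.40 for Scg3. None passed in edgeR adjusted over all genes, where 0.229% of 19256 genes passed, 3 had an unadjusted p under 0.05 (Pcsk1, Scg3 and Chgb), and DESeq2 called Scg3 (DESeq2 adjusted p = 0.024). With unbound replicate 1 or 2 left out, which leaves a single UBS library, edgeR called 4 and 5 of the 10. Scg3 averaged 90.9 CPM in UBS and 68.7 CPM in UBGS libraries (log2 0.40, SE 0.08, edgeR adjusted p = 0.14, n = 2 each). The Scg3 interval ran from 0.21 to 0.60. Astrocyte markers summed to 3082 and 2936 CPM in UBS and 2118 and 2131 CPM in UBGS libraries. Summed GABAergic (798.0 and 774.3 against 675.8 and 662.4 CPM), excitatory and microglia markers were also higher in both UBS libraries. Meningeal fibroblast markers went the other way (209.0 and 203.9 against 219.2 and 213.0 CPM). The astrocyte order was thus not particular to astrocytes, and its part in Scg3 was not tested. Pcsk1n had the widest interval, from −0.68 to 0.66, and its lowest and highest unbound values were both in the UBGS series.

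Genes with a pattern most like each member were sought by Pearson correlation of log2 CPM over the 7 libraries, among 8388 genes with a mean of at least 10 CPM. For the 7 members whose groups did not overlap, from 1204 to 1589 genes correlated above 0.95, so the likeness there is that of the group difference. Scg3 was most like Cyb561, a cytochrome of dense core vesicle membranes that passes electrons to ascorbate (r = 0.976, 6 genes above 0.95). Cpe was most like Dnajc6, the clathrin-uncoating factor auxilin (r = 0.961, 4 genes above 0.95), and Pcsk1 was most like Nudt9, an ADP-ribose pyrophosphatase (r = 0.958). The correlations describe 7 libraries that share the group difference and its scaling. Each named gene is the best of 8388 searched over so few libraries, so its r is high by selection. Whether any of these matches exceeds what such a search gives among unrelated genes was not tested.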

How the data were processed

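RNA was sequenced from 3 bound and 4 unbound TRAP libraries of mouse hippocampus. The authors deposited raw read counts, whole numbers for each gene. The submitters' processing notes name STAR 2.5.3a, HTSeq and mm10. Neither the HTSeq version and annotation release nor the strand setting and treatment of multiply mapped reads was given in the sources used here. IDs were matched to GENCODE M21 (GRCm38), which named 37607 of 39017. Groups follow the treatment label.

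The analysis used edgeR 4.0.16 in R 4.3.3, with filterByExpr by group, TMM scaling, the quasi-likelihood test with robust estimation, Benjamini-Hochberg adjustment over all genes tested, threshold 0.05. SEs were derived from the F statistic. Alternatives used DESeq2 1.42.0, limma 3.58.1 (voom), library totals, totals of nuclear-encoded genes without Gm42418 (a gene that overlaps ribosomal RNA sequence), an exon length offset, other filters, a 1.5-fold minimum, each unbound series alone and each library left out. Labels do not say that libraries came from separate animals, so a p-value here measures the spread among these libraries, which may be technical. Library pairs within groups differed by 25 to 46.3 times what counting error gives, except the UBGS pair at 5.57 times. Each library was counted as 1 sample because none matched another within counting error, which does not show that they come from separate animals, least of all for the UBGS pair. Among the 10 genes counting error bears most on Pcsk1, at 152 to 333 reads per library.

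The test was checked on simulated counts for 19563 genes with 3 against 4 libraries. Of 97 genes with a log2 change of 1 it called 60, and of 97 with a change of 2 it called 83, beside 17 false calls. For 2 against 2 libraries (19256 genes) it called 69 of 97 and 93 of 99, beside 28 false calls. In both runs false calls were a larger share of all calls than the threshold of 0.05. Few genes were changed, with rises and falls balanced, while 61.7% passed between bound and unbound libraries. The check therefore could not show how TMM scaling behaves when so many genes differ.

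The 10 genes, the gene lists and the tests were chosen with earlier results of these data known. Named besides the 10 genes are Scg5, markers of the comparison, and in each list up to 3 genes with the largest rise and 3 with the largest fall among the called genes, if their mean reached 10 CPM and the groups were separate. The neuropeptide precursor list gave no fall under that rule. Likeness was computed on log2(CPM + 0.1). Lists were described by counts and medians, with no set test.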

Additional observations from a re-analysis of the deposited data

Results flagged for a closer look

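The 4 unbound libraries were examined for a value far from the other 3 in 41 genes. They are the 10 processing and granin genes, the markers and rule-chosen list genes, and 9 of the list genes named after seeing their values. The search flagged 4 of the 41 genes, where chance flags about 1 gene in 20, and none of the 10. Of those flagged, Qpct and Pcsk5 were named after seeing their values, so that rate does not apply to them. Scg5, the gene of the PC2 chaperone 7B2, stood at 35.6 CPM in unbound replicate 2 and at 54.6, 56.1 and 56.2 CPM in replicates 1, 3 and 4. The glutaminyl cyclase genes Qpctl and Qpct stood apart in unbound replicate 1, Qpctl at 10.2 CPM against 6.85, 6.53 and 6.96 CPM, and Qpct at 3.555 CPM against 2.36, 2.37 and 2.35 CPM in replicates 2 to 4. Pcsk5, a convertase gene, stood at 10.99 CPM in unbound replicate 2 and at 13.6, 13.3 and 13.3 CPM in replicates 1, 3 and 4.

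Among 28 shares, ratios and sums computed per length within each library, 5 had such a value, and many of them share genes. Unbound replicate 2 was low in the summed granin level (152 CPM per kb), in the share of Scg2 in the summed level of the 10 genes (5.2%) and in the Pam to Cpe ratio (0.0176). Unbound replicate 1 was high in the share of Pcsk2 in that sum (5.35%), and unbound replicate 4 was low in the Pcsk1n to Pcsk1 ratio (10.7). Bound libraries, with 3 in the group, were not examined in this way.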

How the results depend on the processing

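Pcsk2, Pcsk1n, Pam, Scg2, Chga, Chgb and Vgf kept their direction and their call in all 17 alternatives, at log2 values from −1.30 to −0.78, 1.82 to 2.64, 1.16 to 1.74, 0.79 to 1.54, 1.05 to 1.75, −1.45 to −0.75 and 1.51 to 2.16. Cpe lost its call in 7, among them library totals, where it turned to 0.14. Pcsk1 turned to 0.29 with library totals and 0.11 with the UBS libraries alone, and Scg3 to −0.12 with the exon length offset and −0.04 with the UBS libraries alone, none of these past the threshold. Of all single-gene values under these alternatives, 517 kept direction and call, 20 lost the call, 2 gained it and 5 changed sign. Leaving out each library in turn gave 5 higher and 2 to 3 lower members.

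Genes past the threshold numbered 12076, of which 6072 were higher and 6004 lower in bound libraries. With library totals there were 9284 higher and 3704 lower genes, and the median of all genes moved to 0.43 on the log2 scale. Against the 1.5-fold minimum 6854 passed, 3246 higher and 3608 lower. Leaving out 1 library gave 10861 to 11831. With library totals the lists had 3 other processing genes lower in place of 5, 8 peptidases higher in place of 5, and 23 dense core vesicle genes higher and 2 lower in place of 12 and 6. With the 1.5-fold minimum these were 3, 2, 4 and 2. With the UBS libraries alone 3 peptidases were higher. Higher neuropeptide precursor genes numbered 12 to 18 over all alternatives, 16 in the reported test, with the fewest under the exon length offset.

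Between UBS and UBGS libraries 44 genes passed. DESeq2 gave 282, library totals 22 and no filter 104, and leaving out 1 library gave from 16 to 7389, the cause of which was not tested. Unbound replicates 1 and 2 raised that count most when left out (4684 and 7389), and then 4 and 5 of the 10 genes passed, in place of 0, while DESeq2 called 1. The lone library of a series is there assumed to vary like the other pair. Cpe then stood at 0.31 without replicate 1 and at −0.20 without replicate 2 (edgeR adjusted p = 0.00082 and 0.0045), beside 0.08 with all 4. Signs of 3 values near 0 also turned in such fits, with Pcsk1n from −0.38 to 0.49 (0.16 without replicate 1), Chga from −0.03 to 0.05 (−0.01 without replicate 2) and Vgf from −0.15 to 0.01, none past the threshold.

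No paired analysis was possible because bound and unbound titles share no replicate number and the UBS and UBGS titles share a single one.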

Other observations

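Over all genes with a RefSeq promoter window that holds TGACGTCA, 407 were tested between bound and unbound libraries. Of these 139 were higher, 110 lower and 158 not past the threshold, with a median log2 fold change of 0.04.

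Some further genes of the lists were picked out after their values were seen. Cort, the cortistatin precursor, stood at 18.5, 14.4 and 22.0 CPM in bound libraries and at 1.03, 1.31, 0.658 and 0.914 CPM in unbound libraries. Cck, the cholecystokinin precursor, did not pass between bound and unbound libraries, at 294.8, 263.1 and 338.2 CPM in bound libraries and at 95.6, 102.6, 253.3 and 227.2 CPM in unbound libraries, the lower pair being the UBS titles (log2 0.82, SE 0.37, edgeR adjusted p = 0.089). The glutaminyl cyclase gene Qpct, stood at 18.2, 15.9 and 18.4 CPM in bound libraries and at 3.56, 2.36, 2.37 and 2.35 CPM in unbound libraries. Pcsk5, another convertase gene, stood at 2.14, 2.58 and 3.04 CPM in bound libraries and at 13.6, 10.99, 13.3 and 13.3 CPM in unbound libraries.

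Pcsk7, a convertase of the constitutive pathway, did not pass (edgeR adjusted p = 0.63), with 25.6 CPM in bound replicate 2 and 6.15 and 4.74 CPM in bound replicates 1 and 3, against 8.84, 9.86, 10.4 and 10.6 CPM in unbound libraries. Bound replicate 2 also held the highest summed microglia level, at 613.2 CPM against 265.3 and 220.4 CPM in bound replicates 1 and 3, and whether that bears on Pcsk7 was not tested.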
